A study of Astyanax mexicanus with 96 samples.

Results

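Heat shock proteins and their co-chaperones were followed in heart ventricles of Astyanax mexicanus, the Mexican tetra. They were chosen by gene symbol: symbols that begin with hsp, dnaj, hsf or cryab, the bag1 to bag6 and cct2 to cct8 genes, ahsa1, stip1 and tcp1. This rule found 114 of the 27420 genes in the count table, and 55 of the 114 stood on gene models made by the authors. The rule used no measured value. Of the 114 members, 103 had at least 1 CPM (counts scaled to library size after TMM normalization) in at least 1 library and were tested with 18763 genes in all.

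The study compared hearts of surface fish (SF), the river population of the species, with hearts of the blind Pachón cavefish (PC). The fish were 2 years old. Each population gave 3 ventricles without an operation (con), and 5 at each time after a sham operation (6 h, 24 h and 3 days, named 6hps, 24hps and 3dps). It gave a further 5 at each time after cryo-injury (6hpci, 24hpci, 3dpci, 7dpci, 14dpci and 30dpci, likewise named for hours or days). Cryo-injury freezes the tip of the ventricle with a copper probe chilled in liquid nitrogen, and sham fish were touched with a probe at room temperature, so the sham groups carried everything but the freezing. No fish carried a transgene or a test drug, but fish were anesthetized with MS-222 for the operation. Whether the unoperated fish were anesthetized in the same way is not stated. This gave 96 libraries in 20 groups, each library from a single ventricle.

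Molecular chaperones hold unfolded proteins and help them reach or regain their shape. HSP70 proteins bind short greasy stretches of a client in a cycle driven by ATP, J-domain proteins (the dnaj genes) bring clients to HSP70 and start that cycle, and BAG proteins help HSP70 to let go. HSP90 takes over late folding steps of kinases, receptors and muscle myosin, the ring-shaped CCT chaperonin folds actin and tubulin, and the small heat shock proteins, many of them abundant in muscle, keep damaged proteins from clumping. The endoplasmic reticulum (ER) and the mitochondrion have sets of their own. Heat shock factors switch on the inducible members in the cytosol when proteins unfold, whereas ER chaperones answer to the unfolded protein response.

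The libraries held 672292 to 2586602 counts (median 1687721.5), of which the members took 0.418% to 1.60% (median 0.810%). All 48 SF libraries lay above all 48 PC libraries in a score over 120 genes that separates the populations, and no pair of libraries looked like a library deposited in duplicate (highest correlation 0.956). Of the 3 heart muscle markers in the list, myl7 carried nearly all of the signal, and actc1a was at 0. The libraries also held markers of skeletal muscle, red blood cells (summed level 1256.5 to 102310 CPM over all libraries), leukocytes and fibroblasts. In the skeletal muscle list, ckma (mean 2428 CPM), ckmb (697 CPM) and tnnt3b (459 CPM) were read in all 96 libraries, and the other genes in 0 to 93. Whether these 3 came from skeletal or heart muscle was not tested. The sum of this list is therefore not read as skeletal muscle content. Replicate 5 of PC 3dps stood apart, with the highest red blood cell sum of all and a mean correlation of 0.870 with its own group. Without it, 12 of the 196 calls described below were lost. Within a population these were hspa5 in PC at 3dps, dnajc19 and dnajb1a in PC at 6hps, tcp1 in SF at 6hps and hspa8b in SF at 7dpci. Between populations they were hspa5 in controls and at 30dpci, dnaja1 at 3dps, hspa1b at 24hpci, hsp90aa1.2 at 3dpci, and dnajc17 and dnajc9 at 30dpci. Nothing states whether ventricles of a group came from separate tanks or batches, so p-values measure the spread between these samples. In whole ventricles, fewer cells of a type and less RNA per cell cannot be told apart.

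A member was called higher or lower (below also rose or fell) in a comparison where edgeR's quasi-likelihood test gave a Benjamini-Hochberg adjusted p under 0.05 over all genes tested and a fold above 2. Fitted log2 fold changes, given with their standard errors (SE), include 1 factor of unwanted variation (RUVg) and can therefore depart from the ratio of the CPM values printed beside them. The factor itself differed between groups. In SF it was 0.066 to 0.157 in controls and -0.103 to -0.055 at 7dpci. In PC it was -0.030 to -0.013 in controls and -0.203 to -0.149 at 7dpci. At 6hps in PC it was 0.027 to 0.133, again without overlap with the controls. In SF it was -0.002 to 0.074 at 3dps and -0.085 to -0.024 at 3dpci, also without overlap. In PC it lay below the controls at 3dps and at every time from 7dpci on, and in SF also at 14dpci. SF 24hpci and SF 24hps did not overlap either. Between SF and PC the ranges overlapped only at 6hps. At 30dpci, for example, the factor was 0.058 to 0.088 in SF and -0.089 to -0.051 in PC. The ranges of SF 6hps (0.107 to 0.260) and 24hps (0.096 to 0.192) overlapped the SF controls. Where the groups compared differ so, the factor cannot be fully told apart from the condition or the population. Over 34 comparisons, 62 of the 103 tested members were called at least once (60.2%, where 37.3% of all genes tested were), with 196 calls in all. In the sham groups against controls, 25 members were called at least once in SF (24.3%, all genes 12.8%) and 21 in PC (20.4%, all genes 7.62%). In the comparisons after cryo-injury the numbers were 19 in SF (18.4%, all genes 10.8%) and 13 in PC (12.6%, all genes 6.97%). A call described as lost without a replicate was lost when that replicate number was left out of every group at once. Where members at an unadjusted p under 0.05 are counted below, the share of all genes at that threshold was not computed. Those counts are therefore not read as an effect on the members.

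The summed level of the members rose and fell back with time in both populations. Abundant members weigh most in this sum: over all libraries hsp90ab1 had 318224 reads, cct7 100148 and hspa5 94335. The sum also takes in the 4 genes matched by symbol that are not chaperones. In SF, the sum lay between 6358.5 and 7017.1 CPM in controls, between 9311.2 and 11741 at 6hps and between 10068 and 13690 at 24hps, and was back at 6805.4 to 8030.6 at 3dps. In PC it was 5616.3 to 6222.4 CPM in controls, 9450.3 to 11429 at 6hps, 9041.5 to 10288 at 24hps and 5907.9 to 7093.4 at 3dps. None of the libraries at 6 h or 24 h after the sham operation overlapped the controls of its population. After cryo-injury the ranges overlapped those of the time-matched sham groups at each of 6 h, 24 h and 3 days: for SF, 9569 to 11812 CPM at 6hpci and 9872.3 to 13011 at 24hpci, and for PC, 9916.4 to 11022 and 8583.8 to 11907. By 30dpci the sums were 6616.1 to 7515.7 CPM in SF and 4981.9 to 6012.4 in PC. The comparisons of sham-operated with unoperated hearts therefore come first.

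**Figure D1:**
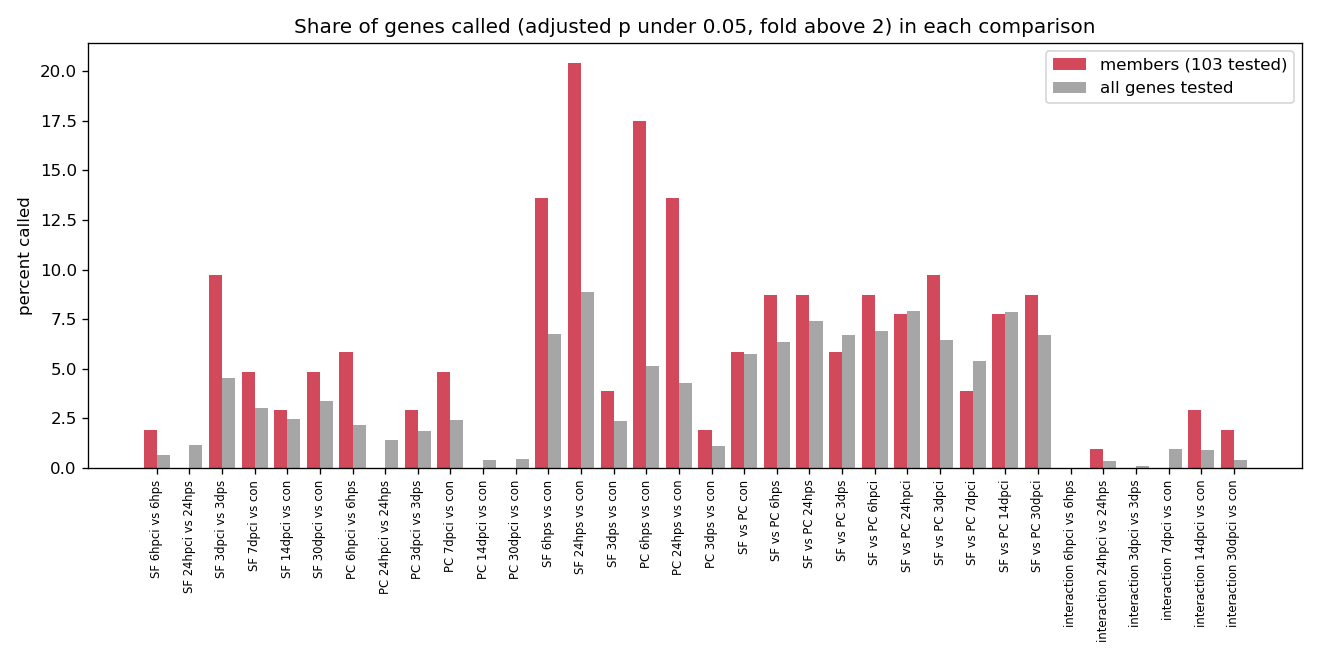
Share of the 103 tested members called by edgeR (bars, in percent) beside the share of all 18763 genes tested, in each of the 34 comparisons. The members' share was highest in the sham groups at 6 h and 24 h, at 13.6% to 20.4%, and was 0% in 7 comparisons.

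At 6hps against controls, 14 members were called in SF, 13 of them higher, which is 13.6% of the members tested where 6.74% of all genes were called and 3.43% were called higher. In PC the count was 18, with 14 higher, or 17.5% where 5.12% of all genes were called (3.06% higher). At 24hps, 21 members were called in SF (18 higher, 20.4%, all genes 8.85%, or 4.29% higher) and 14 in PC (13 higher, 13.6%, all genes 4.31%, or 2.17% higher). The median log2 fold change of the tested members was 0.42 in SF and 0.46 in PC at 6hps, and 0.44 and 0.33 at 24hps, where the median over all genes lay between 0.02 and 0.06. In SF the groups did not overlap for 11 of the 14 calls at 6hps and for 21 of 21 at 24hps. In PC they did not overlap for 14 of 18 and 14 of 14. Called higher in both populations were 6 members at 6hps and 11 at 24hps. Neither the groups without overlap nor the shared calls were counted over all genes. They are therefore not read as a trait of the members. These counts rest on the model for unwanted variation: with 2 RUVg factors the SF sham calls dropped from 39 to 7 and the PC sham calls from 34 to 11, and without replicate 2 of each group the hspa5 call in SF at 6hps was lost. The all-gene share with 2 RUVg factors is not given here, so whether the members still exceeded it is left unstated. The 6hps, 24hps and 3dps groups were compared with the same 3 control ventricles of their population.

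Markers of other cell types moved over the same comparisons. Of 10 tested leukocyte markers, 3 rose in PC at 6hps (csf3r and 2 lysozyme genes) and none elsewhere, with medians of 1.18 and 1.61 in SF and 0.98 and 0.02 in PC at 6hps and 24hps. Their summed level was 20.5 to 54.3 CPM in SF controls, 25.3 to 79.9 at 6hps and 41.7 to 74.9 at 24hps, and in PC 37.5 to 62.8, 61.4 to 103 and 46.8 to 118 CPM. Of 7 red blood cell markers, 1 fell in PC at 24hps, where the median was -1.69 and the sum 1256.5 to 6176.1 CPM against 4500.8 to 11166 CPM in controls. Of 13 skeletal muscle markers, ckma fell at 24hps in both populations and ckmb in PC, where the sum was 2502.9 to 3723.5 CPM against 5558.5 to 5923.6 CPM. The list's median at 24hps was 0.34 in SF and -0.61 in PC. The fibronectin gene fn1a, from the fibroblast list, rose in SF at 24hps and in PC at both times. Their part in the members' differences was not tested.

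**Figure D2:**
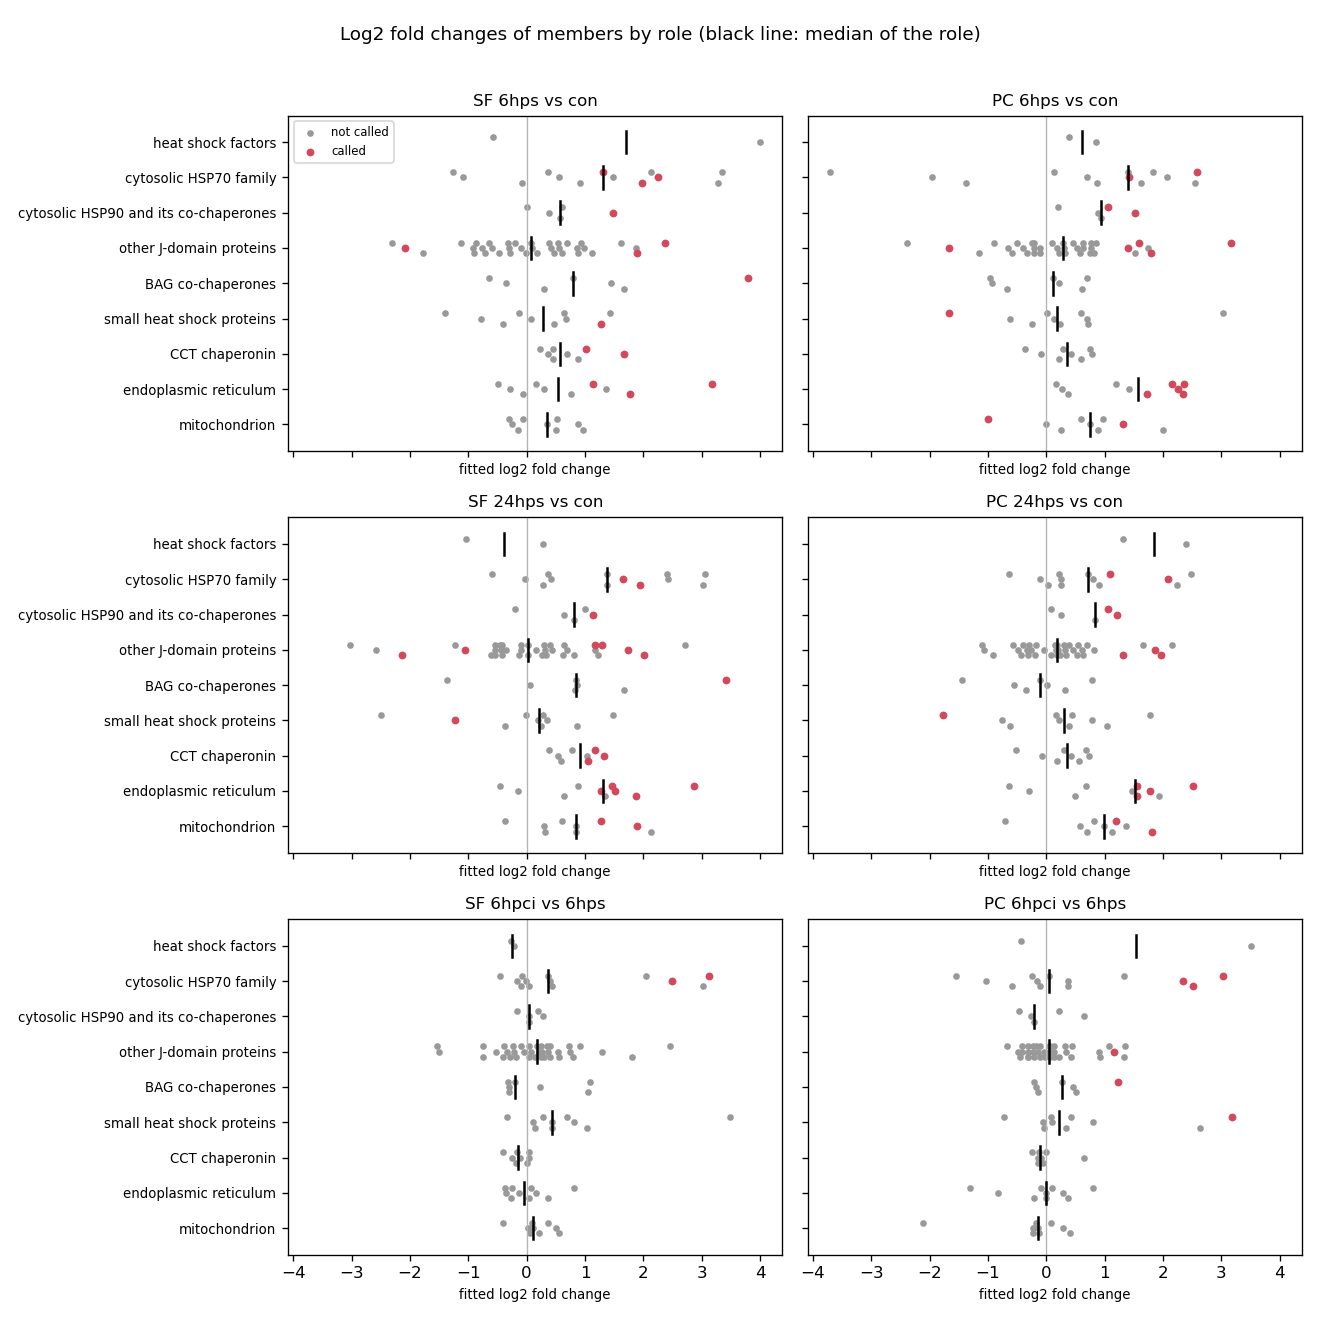
Fitted log2 fold change of each tested member (point), grouped by role, in 6 comparisons: 6hps and 24hps against controls, and 6hpci against 6hps, in SF and PC. Red points were called by edgeR, and the black line is the median of a role. The medians of the ER members after the sham operation lay between 0.53 and 1.57.

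The ER members gave many of these calls. Of 10 tested, 3 rose in SF at 6hps and 5 at 24hps, and 5 rose in PC at 6hps and 4 at 24hps, with none lower. hspa5, also called BiP, is the HSP70 of the ER (ENSAMXG00000009012, on an unplaced scaffold of the assembly Mexican tetra 2.0). It measured 213, 181 and 435 CPM in the SF controls and 977, 945, 996, 1054 and 754 CPM at 6hps. Every sham-operated library was above every control. The log2 fold change was 1.77 (SE 0.31, adjusted p = 2.71e-05, edgeR). In PC, hspa5 measured 176, 79.1 and 119 CPM in controls and 595, 630, 731, 705 and 505 CPM at 6hps, again without overlap (log2 fold change 2.34, SE 0.33, adjusted p = 3.58e-07, edgeR). At 24hps the differences were 1.88 in SF and 2.52 in PC (SE 0.31 and 0.32), and the PC call was kept under all 13 alternative settings (lowest log2 fold change 1.43).

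dnajc3a encodes p58IPK, a J-domain partner of BiP (chromosome 19, 25784122 to 25799145, plus strand, overlapping uggt2 on the other strand). It measured 5.89, 3.93 and 3.15 CPM in the SF controls and 45.4, 32.8, 24.1, 21.8 and 33.9 CPM at 6hps, so that the groups were far apart. Its log2 fold change of 3.18 (SE 0.46, adjusted p = 2.82e-07, edgeR) held under all 13 alternatives. In PC the controls were at 13.3, 10.8 and 7.44 CPM and the 6hps libraries between 20.3 and 47.5 CPM (log2 fold change 2.16, SE 0.42, adjusted p = 0.00015, edgeR). dnajb11, or ERdj3, which binds clients for BiP (chromosome 19, 35293098 to 35299950, minus strand), was at 26.8, 15.7 and 42.5 CPM in the SF controls and at 70.2 to 104 CPM at 24hps (log2 fold change 1.52, SE 0.27, adjusted p = 1.41e-05, edgeR). In PC it went from 10.8, 20 and 7.44 CPM to 27.5 to 47.4 CPM (1.56, SE 0.30, adjusted p = 0.000133, edgeR). dnajc10, or ERdj5, a disulfide reductase, rose in PC at 6hps (log2 fold change 2.26) and 24hps (1.56) and in SF at 24hps (1.27). dnajc3b rose in PC at 6hps from 6 reads over the 3 controls to 62 reads over 5 libraries, and dnajb9a, or ERdj4, rose in SF at 24hps (log2 fold change 1.47, adjusted p = 0.0343, edgeR; -0.018 with 2 RUVg factors). hsp90b1, the HSP90 of the ER, was read at 0 to 17.2 CPM in the control and sham libraries up to 24 h and passed the test in neither population.

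Other genes of the ER folding machinery, taken from a list that is not part of the members, moved with them. Of 23 tested, 5 rose and 1 fell in SF at 6hps, 10 rose and 1 fell at 24hps, and 9 rose in PC at each time, with 1 lower at 6hps. PDIA6, a protein disulfide isomerase, was higher by 1.96 (SF 6hps), 2.64 (SF 24hps), 1.71 (PC 6hps) and 1.76 (PC 24hps) on the log2 scale. hyou1, the large HSP70 relative that exchanges BiP's nucleotide, was higher by 1.42, 2.10, 1.49 and 1.65, and creld2, another disulfide isomerase, by 2.05, 2.79, 1.58 and 1.73. The gene that fell was ddit3, which encodes CHOP, the factor that turns lasting ER stress towards cell death (-1.75 in SF at 6hps, -1.74 at 24hps and -1.34 in PC at 6hps; -0.72 with adjusted p = 0.19, edgeR, in PC at 24hps). xbp1, a transcription factor of the same response, was called only in PC at 6hps (1.05); the difference between populations was not tested for these comparisons.

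Among the cytosolic HSP70 family, hspa4b was called in both populations at both times. It is an HSP110 protein, which exchanges the nucleotide of HSP70 (ENSAMXG00000011616, chromosome 8, 7699648 to 7718828, minus strand). Its SF controls lay close together at 16.3, 15.7 and 17.3 CPM, and the 6hps libraries measured 53.9, 68, 66.6, 70.1 and 51.8 CPM (log2 fold change 1.99, SE 0.30, adjusted p = 1.04e-06, edgeR). In PC it went from 20.8, 7.49 and 7.44 CPM to 80.1, 81.3, 75, 40.6 and 58.6 CPM (2.58, SE 0.32, adjusted p = 7.42e-09, edgeR). All sham-operated libraries of both populations exceeded all controls. hspa8, the constitutive HSC70 (chromosome 20, 27563052 to 27568669), has snoRNA genes and a further gene within it on the same strand, so some of its reads are uncertain. It rose in SF at 6hps, from 166, 132 and 184 CPM to 302 to 504 CPM (1.31, SE 0.26, adjusted p = 0.000209, edgeR), and at 24hps (1.65), and in PC at 24hps (1.1). hspa4a, a close relative of hspa4b, rose in PC at 6hps from 41.7, 49.1 and 66.1 CPM to 137 to 174 CPM (1.41, SE 0.24, adjusted p = 1.71e-05, edgeR). In SF its controls were at 74.5 to 113 CPM and its 6hps libraries at 106 to 142 CPM (0.36, adjusted p = 0.36, edgeR). hspa12b, a distant HSP70 relative known from endothelium, rose in SF at 6hps (2.25, adjusted p = 0.00822, edgeR), but it overlaps cct7 on the opposite strand.

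HSP90 and its helpers rose in part. hsp90ab1, the constitutive HSP90, measured 1268, 1107 and 1129 CPM in the PC controls and between 2252 and 2990 CPM at 24hps, with no overlap (log2 fold change 1.06, SE 0.18, adjusted p = 1.38e-05, edgeR). In SF it was higher by 1.00 at 24hps with an adjusted p of 2.5e-05 (edgeR), at the edge of the fold threshold and not called. hsp90aa1.2, an HSP90 alpha gene, rose in PC at 6hps from 65.3 to 98.3 CPM in controls to 232 to 479 CPM (1.52, SE 0.41, adjusted p = 0.0102, edgeR) and at 24hps, and in SF at 24hps (1.13, SE 0.38, adjusted p = 0.0363, edgeR; -0.034 with 2 RUVg factors). ahsa1b, which speeds up HSP90's ATPase, rose at 6hps in SF from 17.7, 23.6 and 12.6 CPM to 37.5 to 61.8 CPM (1.47, SE 0.30, adjusted p = 0.000274, edgeR) and in PC (1.05, adjusted p = 0.0199, edgeR). In PC these groups overlapped, and the call was lost without replicate 1, 2, 3 or 5 and turned to -0.034 with 2 RUVg factors. stip1, or HOP, which links HSP70 to HSP90, passed the adjusted p but not the fold in 3 of the 4 comparisons. Of 23 further HSP90 co-chaperone and folding genes, 3, 5, 2 and 3 rose and 0, 1, 1 and 1 fell (SF 6hps, SF 24hps, PC 6hps, PC 24hps). ptges3b, the p23 co-chaperone, rose in all 4 (1.71, 2.0, 1.40 and 1.08), and fkbp5, an immunophilin driven by steroid hormones, was the gene that fell in the last 3 of them (-1.02, -1.01 and -1.67).

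The mitochondrial chaperonin pair rose by 24 h. hspd1 (HSP60, chromosome 19, 34910475 to 34918226, minus strand) and hspe1 (HSP10, 34920884 to 34924796, plus strand) lie head to head and together form the folding chamber of the matrix. hspd1 measured 29.4, 44.2 and 51.2 CPM in the SF controls and 117, 240, 145, 173 and 158 CPM at 24hps (log2 fold change 1.89, SE 0.26, adjusted p = 4.85e-08, edgeR). In PC it went from 42.5, 30 and 35.5 CPM to 143, 173, 138, 129 and 118 CPM (1.81, SE 0.26, adjusted p = 3.87e-07, edgeR). These 4 groups did not overlap within a population, and the PC call held under all 13 alternatives. hspe1 went from 222 to 264 CPM to 506 to 1008 CPM in SF (1.28, SE 0.24, adjusted p = 5.29e-05, edgeR) and from 217 to 266 CPM to 502 to 714 CPM in PC (1.19, SE 0.24, adjusted p = 0.000313, edgeR). At 6hps hspd1 was called in PC (1.32) and passed the adjusted p without the fold in SF (0.96, adjusted p = 0.012, edgeR). hspa9, or mortalin, the HSP70 of the matrix, was higher by 1.00 in PC at 24hps (adjusted p = 0.0028, edgeR) and just missed the fold. Going the other way, dnajc19, a J-domain protein of the import motor, fell in PC at 6hps (-1.01, adjusted p = 0.00197, edgeR), with overlap between the groups. From a list of 11 further tested genes of mitochondrial protein quality control, 3, 2, 2 and 3 rose and 1, 1, 0 and 1 fell (SF 6hps, SF 24hps, PC 6hps, PC 24hps), with medians of 0.21, 0.64, -0.25 and 0.11. lonp1, the matrix protease, rose in all 4 comparisons (2.73, 3.01, 1.84 and 1.57), as did grpel1, the nucleotide exchange factor of hspa9 (1.36, 1.42, 1.71 and 1.61). clpxb, a subunit of the matrix protease ClpXP, rose in SF at 6hps (1.17), and trap1, the HSP90 of mitochondria, in PC at 24hps (1.12). The genes that fell were atf5b in SF at 6hps (-1.06) and atf5a at 24hps in SF (-1.38) and PC (-1.59), which encode transcription factors of the ATF5 type, known in mammals for the mitochondrial unfolded protein response.

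The CCT ring was called in SF alone, but the populations were not shown to differ, since no test of that difference was run between sham and control. All 8 subunits had a log2 fold change above 0 in SF at both times, with medians of 0.57 and 0.91, and 2 and 3 of them were called. In PC the medians were 0.36 at both times and none was called. cct3, the gamma subunit (chromosome 10, 12154001 to 12161542, minus strand), measured 171, 165 and 148 CPM in the SF controls and 460, 454, 367, 438 and 365 CPM at 24hps. The log2 fold change of 1.33 (SE 0.17, adjusted p = 2.4e-09, edgeR) held under all 13 alternatives. In PC, cct3 measured 182, 192 and 188 CPM in controls and 248 to 390 CPM at 24hps, also without overlap, with a log2 fold change of 0.73 (SE 0.16, adjusted p = 0.0011, edgeR). tcp1, the alpha subunit, had log2 fold changes in SF of 1.01 (6hps) and 1.05 (24hps), and in PC of 0.75 and 0.69 with adjusted p of 0.0045 and 0.0049 (edgeR). cct5 rose in SF at 24hps (1.18). cct6a was called in SF at 6hps (1.67), but it was read at 0 CPM in 1 control and its groups overlapped. Both tcp1 and cct6a overlap other annotated genes on the same strand, so some of their reads are uncertain.

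**Figure D3:**
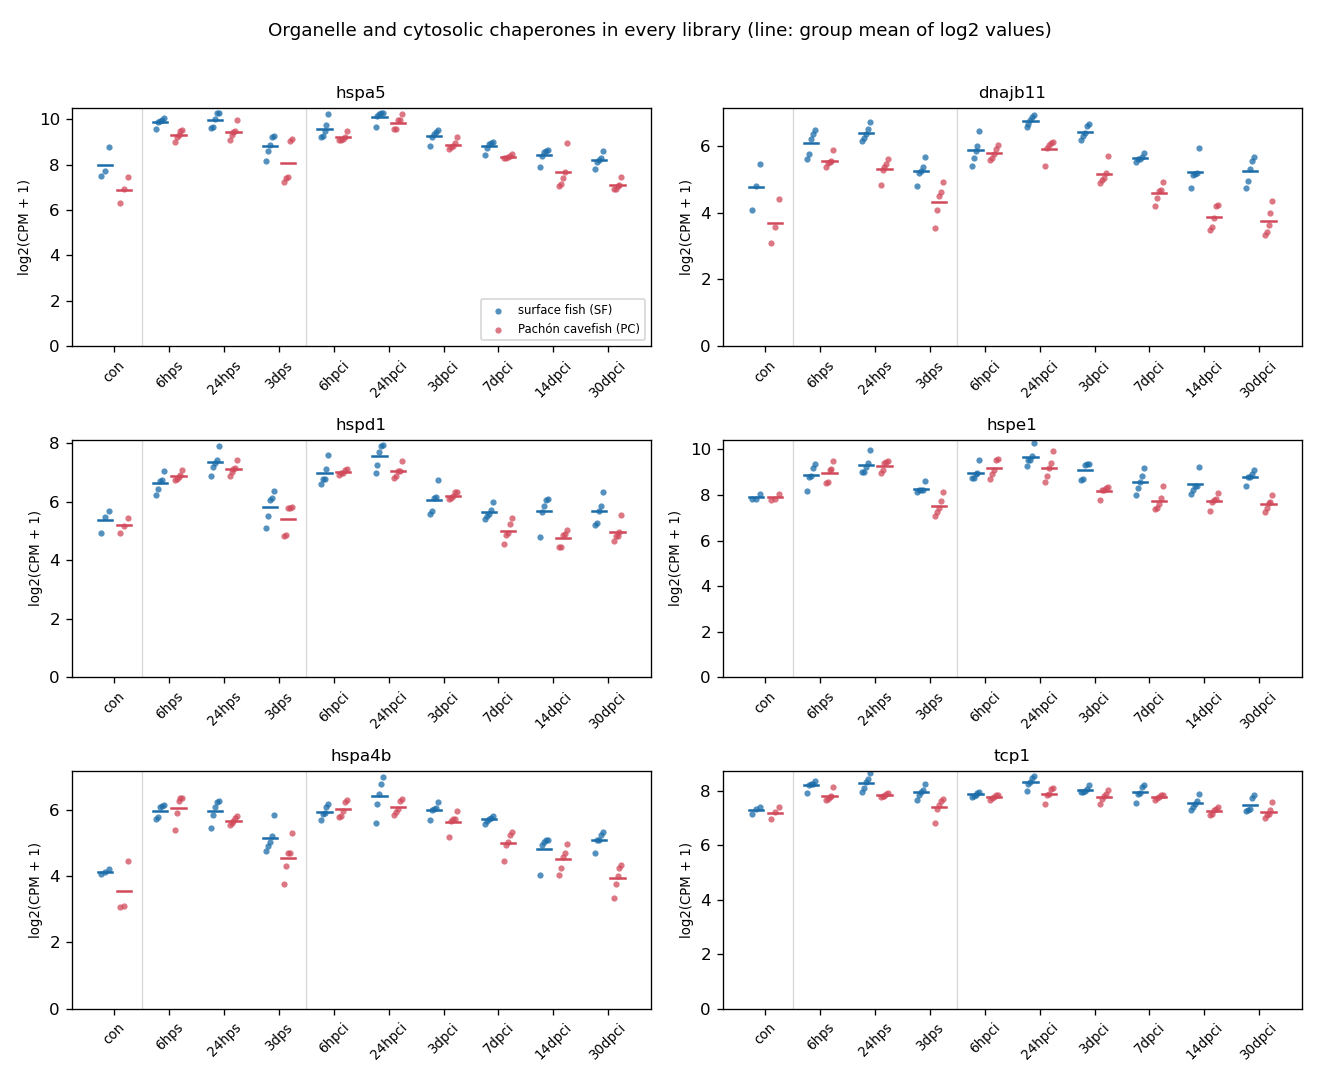
Level in each library, log2(CPM + 1), of hspa5, dnajb11, hspd1, hspe1, hspa4b and tcp1 over the 10 conditions, SF in blue and PC in red, with a short line at each group mean of the log2 values. All libraries of hspa5, hspd1 and hspa4b stood above the controls of their population at 6 h and 24 h after the sham operation; hspa5 ran from 79.1 CPM in a PC control to 1242 CPM in an SF library at 24hps.

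The remaining J-domain proteins, 37 tested, split. Higher after the sham operation was DNAJA4, a heat-inducible partner of HSP70. In PC it went from 5, 4.16 and 6.61 CPM in controls to 18.8, 21.6, 23.7, 87.2 and 37 CPM at 6hps (log2 fold change 3.17, SE 0.58, adjusted p = 6.2e-05, edgeR). In SF it rose to between 4.16 and 31.2 CPM at 6hps, overlapping the controls at 3.15 to 5.23 CPM (2.37, adjusted p = 0.00415, edgeR; lost without replicate 3). dnajb14, an ER-anchored member, rose in PC at both times (1.79 and 1.87). dnajc21 and dnajc2, which act on ribosomes, rose in SF at 24hps (1.17 and 1.29), and dnajc21 also in PC at both times. With 2 RUVg factors the SF value of dnajc21 was -0.052. Lower was dnajb4, an HSP70 partner abundant in muscle: it measured 45.1, 55 and 44.9 CPM in the SF controls and 9.22, 20.3, 22.5, 18.4 and 12.8 CPM at 6hps, without overlap, and its log2 fold change of -2.08 (SE 0.37, adjusted p = 3.19e-05, edgeR) held under all 13 alternatives. At 24hps it was lower by 1.05 (adjusted p = 0.0248, edgeR). In PC dnajb4 lay at 20 to 26.7 CPM in controls and 11.3 to 20 CPM at 6hps and was not called. dnajb2 fell in SF at 24hps (-2.13) on 34 reads over the controls and 16 over the sham group. dnajc17, which works with the spliceosome, fell in PC at 6hps (-1.67, adjusted p = 0.00671, edgeR).

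The small heat shock proteins rose with the others in a single case. hspb1, or HSP27, was called higher in SF at 6hps (1.27, SE 0.32, adjusted p = 0.0051, edgeR), but its libraries were spread from 159 to 686 CPM and overlapped the controls at 167 to 294 CPM, and the call was lost without the RUVg factor and without replicate 4. hspb7, the cardiac small heat shock protein, measured 539, 566 and 547 CPM in the SF controls and 193, 218, 262, 277 and 335 CPM at 24hps. It fell by 1.23 on the log2 scale (SE 0.20, adjusted p = 2.94e-06, edgeR), with the groups well apart. In PC its controls were at 183 to 240 CPM and its 24hps libraries at 126 to 168 CPM (-0.77, adjusted p = 0.011, edgeR), short of the fold threshold. hspb3, a muscle member, went in PC from 40.8, 50.8 and 41.3 CPM to 9.05 to 24.8 CPM at 6hps (-1.67, adjusted p = 0.0114, edgeR) and 8.47 to 22.2 CPM at 24hps (-1.77, adjusted p = 0.00293, edgeR), with no overlap at either time. The 6hps call was lost without replicate 1, 2, 3 or 5.

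Of the BAG co-chaperones, only bag4 was called after the sham operation, in SF. Also named SODD, bag4 silences TNF receptor 1. It was read 2 times in all in the 3 SF controls and 60 times at 6hps, a ratio of 15.9 with an exact 95% interval of 4.22 to 134. This interval covers counting error only. The ratio was 12.2 (3.21 to 104) at 24hps and 10.8 (2.83 to 91.9) at 3dps, and bag4 stayed called against the same controls at 7, 14 and 30 days after cryo-injury, at ratios of 11.6, 13.2 and 13.5. These 6 calls rest on the same 2 control reads, and each was lost without replicate 3. In PC, bag4 was at 0.833, 0.833 and 9.09 CPM in controls. bag3, which partners HSPB8 in clearing damaged sarcomere proteins, measured 24.4 to 34.7 CPM in SF controls and 17.7 to 32.8 CPM at 6hps (-0.64, adjusted p = 0.32, edgeR).

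At 3dps few members were called against controls. In SF 4 members were called, all higher, or 3.88% where 2.38% of all genes were called: bag4, dnajc3a (1.62), hspa4b (1.03) and hspa8. hspa8 measured 310 to 455 CPM against 132 to 184 CPM in controls (1.38, SE 0.26, adjusted p = 0.000322, edgeR), a call that held under all 13 alternatives. In PC 2 were called (1.94%, all genes 1.12%), dnajc10 (1.79) and hspa5. hspa5 measured 173, 169, 147, 525 and 563 CPM at 3dps and overlapped the controls. Its log2 fold change of 1.34 (adjusted p = 0.0112, edgeR) dropped to 1.07 (adjusted p = 0.0604) without replicate 5, the library that stood apart. The fibroblast marker sum also moved, from 165 to 376 CPM in SF controls to 1063 to 1682 CPM at 3dps, and its part was not tested.

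Against the sham groups of the same time, cryo-injury gave few calls. At 6hpci against 6hps, 2 members were called in SF and 6 in PC, all higher, or 1.94% and 5.83% of the members where 0.661% and 2.18% of all genes were called and 0.522% and 1.83% were called higher. The medians of the tested members were 0.07 and -0.01. Inducible cytosolic HSP70 genes gave the 2 calls in SF and 3 of the 6 in PC. For the hsp70.3 gene with the identifier ENSAMXG00000043809, on an unplaced scaffold and overlapping hsd17b1 on the same strand, the SF sham libraries measured 6.38, 3.13, 0.832, 1.15 and 2.56 CPM and the 6hpci libraries 58.8, 17.3, 25.6, 13.7 and 19.1 CPM. The PC sham libraries measured 2.79, 1.75, 1.25, 8.27 and 8.08 CPM and the 6hpci libraries 35.2, 23.2, 25.2, 35.3 and 15.9 CPM. In both populations every injured heart lay above every sham heart. The log2 fold change was 3.12 (SE 0.74, adjusted p = 0.0147, edgeR) in SF and 2.51 (SE 0.70, adjusted p = 0.0245, edgeR) in PC. In the controls this gene was at 0, 0 and 0.788 CPM in SF and 2.5, 0 and 0 CPM in PC.

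hspa1b, a further inducible HSP70 (ENSAMXG00000026104, chromosome 6, 5265818 to 5270944, plus strand), measured 5.67, 0, 0.832, 1.15 and 1.28 CPM in SF at 6hps and 23.9, 8.92, 16.9, 6.35 and 12.8 CPM at 6hpci (log2 fold change 2.50, SE 0.68, adjusted p = 0.0489, edgeR). In PC it measured 2.79, 0.585, 1.25, 7.51 and 0.674 CPM and then 27.4, 16.7, 18.1, 19.3 and 3.32 CPM (2.35, SE 0.65, adjusted p = 0.0235, edgeR). The SF groups did not overlap, and in PC the lowest injured heart lay below the highest sham heart. A second hsp70.3 gene (ENSAMXG00000039796, chromosome 2, 5895722 to 5897853, plus strand) was called in PC, where it went from 0, 1.17, 0.625, 5.26 and 0 CPM to 12.9, 9.44, 12, 16.6 and 7.31 CPM (3.03, SE 0.85, adjusted p = 0.0278, edgeR). In SF it measured 11.1, 8.36, 3.75, 0.529 and 6.38 CPM at 6hpci against 0 to 3.84 CPM, which overlapped (2.04, SE 0.88, adjusted p = 0.30, edgeR). These genes belong to the same family, and their sequences were not compared. How the counting treated reads that match several genes is not given in the sources used here, so the split between them is uncertain. The calls are fragile: for hsp70.3 on the scaffold they were lost with 2 RUVg factors (log2 fold change 2.80 in SF, adjusted p = 0.0715, and 1.91 in PC, adjusted p = 0.391) and without replicate 3 or 4, and for hspa1b in SF under 7 of the 13 alternatives. The direction stayed the same under each of them.

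Co-chaperones of the inducible HSP70s went with them in PC. bag3 (chromosome 25, 14442551 to 14452067, plus strand) measured 8.36, 12.3, 15, 18 and 19.5 CPM at 6hps and 37.4, 40, 27.4, 28.1 and 25.9 CPM at 6hpci, with no overlap (log2 fold change 1.24, SE 0.31, adjusted p = 0.0104, edgeR). In SF, bag3 measured 17.7 to 32.8 CPM and then 34.4 to 58.8 CPM, also without overlap, with a log2 fold change of 1.08 (SE 0.31, adjusted p = 0.0604, edgeR) that missed the threshold. dnajb1b, or HSP40, the J-domain protein that works with inducible HSP70, went in PC from 15.2 to 23.6 CPM to 23.9 to 70.1 CPM (1.16, SE 0.35, adjusted p = 0.0483, edgeR) and in SF from 5.47 to 13.5 CPM to 17.3 to 36.1 CPM (1.29, SE 0.38, adjusted p = 0.0719, edgeR). hspb11, a small heat shock protein gene at the very start of chromosome 14 (148958 to 150671, plus strand) that overlaps another gene on its strand, measured 1.39, 1.17, 1.25, 1.5 and 0 CPM at 6hps in PC and 8.94, 26.1, 2.19, 9.93 and 5.31 CPM at 6hpci (3.18, SE 0.79, adjusted p = 0.00803, edgeR). In SF it measured 0.529 to 6.96 CPM at 6hpci against 0 to 5.17 CPM (1.03, adjusted p = 0.62, edgeR).

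A member called in PC and not in SF was not thereby shown to differ. The direct test of the difference between populations at 6 h called none of the 103 members and none of all genes by edgeR (0%), and 9 members had an unadjusted p under 0.05. The difference in log2 fold change, SF minus PC, was 0.61 (SE 0.99) for hsp70.3 on the scaffold, 0.15 (SE 0.85) for hspa1b, -0.15 (SE 0.42) for bag3, 0.12 (SE 0.49) for dnajb1b and -2.15 (SE 1.1, adjusted p = 0.70, edgeR) for hspb11. The summed level of 13 leukocyte markers moved as well: in PC it was 61.4 to 103 CPM at 6hps and 203 to 499 CPM at 6hpci, and in SF 25.3 to 79.9 and 38.1 to 116 CPM. Most of that sum came from csf1ra and 1 LYZ gene, and both mpx genes were at or near 0. Its part in these differences was not tested. The ER members gave no call in either population at this time. hspa5 measured 586 to 1202 CPM in SF at 6hpci and 535 to 708 CPM in PC, both within or across the sham ranges (-0.25 and -0.10, adjusted p = 0.74 and 1.0, edgeR).

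**Figure D4:**
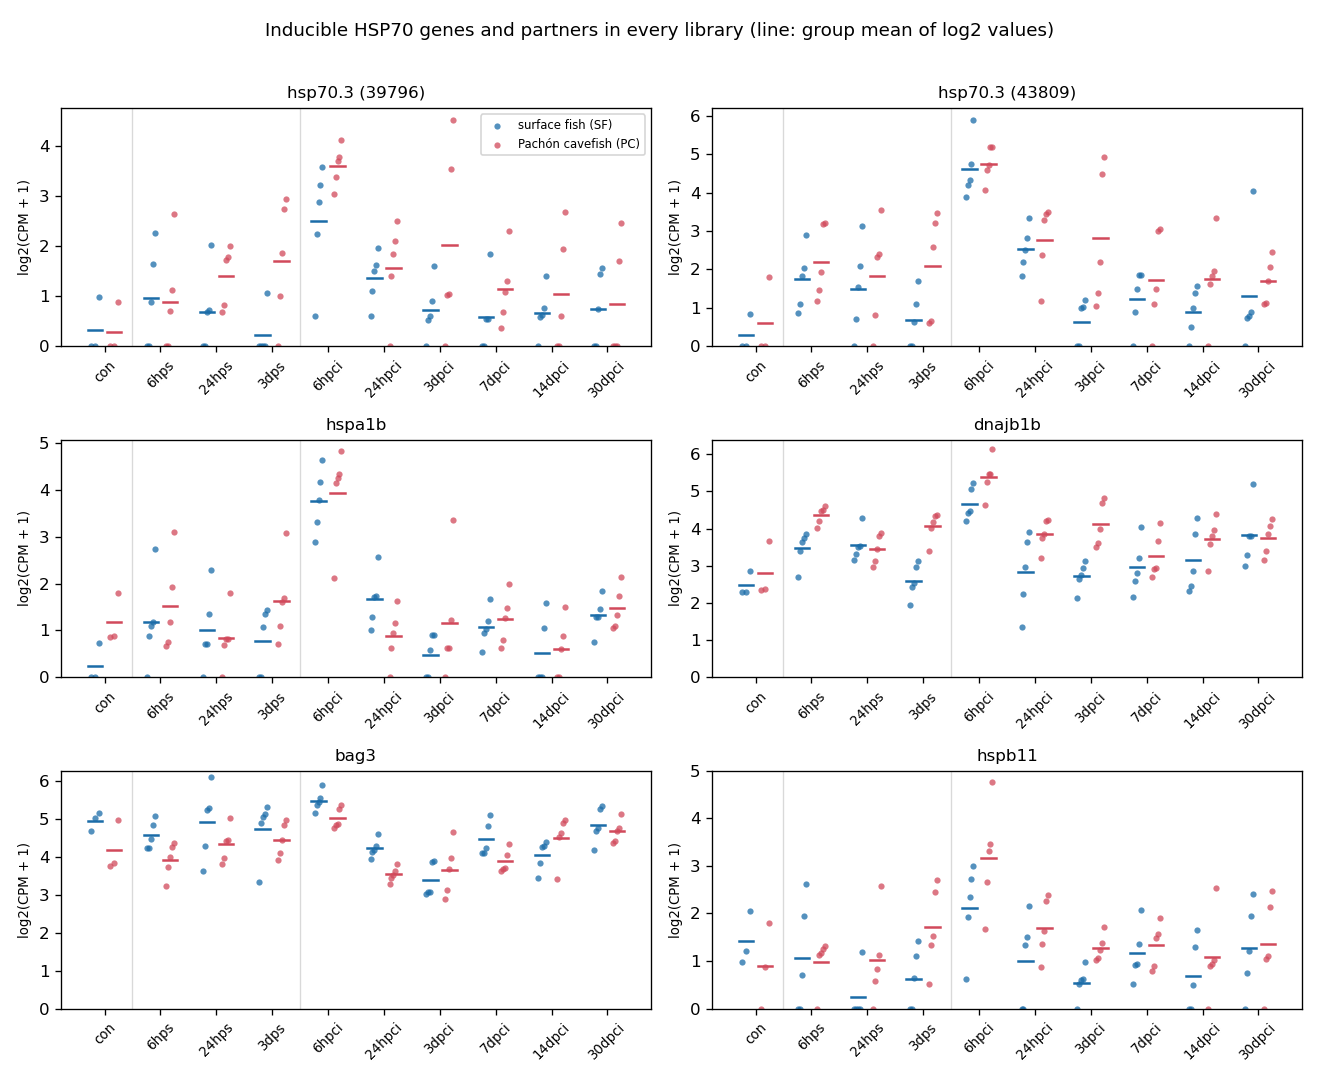
Level in each library, log2(CPM + 1), of both hsp70.3 genes, hspa1b, dnajb1b, bag3 and hspb11 over the 10 conditions, SF in blue and PC in red, with a short line at each group mean of the log2 values. The peak stood at 6hpci; at 3dpci the hsp70.3 genes were high again in 2 PC libraries alone, replicates 3 and 4, at 10.8 to 29.5 CPM.

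At 24 h the scaffold hsp70.3 gene was back near the sham level. hspa1b and the second hsp70.3 gene were not called against the sham groups. Between populations, however, hspa1b was called higher in SF than in PC at 24hpci, a call lost without PC 3dps replicate 5. hsp70.3 on the scaffold measured 2.57 to 9.06 CPM in SF at 24hpci against 0 to 7.72 CPM at 24hps (log2 fold change 0.77, adjusted p = 0.84, edgeR) and 1.25 to 10.4 against 0 to 10.7 CPM in PC (0.57, adjusted p = 0.92, edgeR). None of the 103 members was called by edgeR in either population, where the all-gene share was 1.17% in SF and 1.41% in PC. At an unadjusted p under 0.05 there were 15 in SF and 13 in PC, with no all-gene share to set beside them. DESeq2 called 0 and 3. hspe1 came closest in SF (0.82, SE 0.22, adjusted p = 0.026, edgeR), below the fold threshold, with 610 to 1230.4 CPM against 506 to 1008 CPM.

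At 3dpci against 3dps, 10 members were called in SF, 4 higher and 6 lower (9.71%, all genes 4.56%), and 3 in PC, 1 higher and 2 lower (2.91%, all genes 1.89%). Without PC 3dps replicate 5 the PC count was 7. Of the 10 small heat shock proteins tested, 2 were called lower in SF and 1 in PC, and none was called higher. Their log2 fold changes were below 0 for 9 of 10 in SF and 10 of 10 in PC, with medians of -0.63 and -0.66, where the median over all genes was 0.01 and -0.04. Among the called members the largest change was that of hspb6, or HSP20, a partner of muscle contraction. It measured 6.16, 35.8, 38.3, 24.8 and 23.9 CPM in SF at 3dps and 4.39, 1.3, 4.57, 4.39 and 4.76 CPM at 3dpci, with no overlap. Its log2 fold change of -3.52 (SE 0.54, adjusted p = 1.32e-06, edgeR) held under all 13 alternatives. In PC, hspb6 was already at 0.63 to 4.4 CPM at 3dps and stood at 1.54 to 3.36 CPM at 3dpci. hspb1 fell in SF (-1.22, adjusted p = 0.00114, edgeR), though its sham libraries ran from 145 to 656 CPM and overlapped 173 to 306 CPM at 3dpci. hspb7 passed the adjusted p and not the fold, from 249 to 346 CPM down to 65 to 161 CPM in SF (-0.95, adjusted p = 0.00025, edgeR) and from 105 to 239 CPM to 64.6 to 112 CPM in PC (-0.64, adjusted p = 0.038, edgeR). In PC, HSPB9, a gene the annotation describes as uncharacterized, fell (-1.49, adjusted p = 0.00893, edgeR), with sham libraries spread from 15 to 247 CPM.

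dnajb4 fell in both populations at 3dpci. In SF it measured 19.2, 13.8, 23.1, 21.8 and 17 CPM at 3dps and 1.76, 10.8, 4.57, 6.83 and 2.12 CPM at 3dpci (-1.38, SE 0.36, adjusted p = 0.00648, edgeR), and in PC 18.9 to 31.1 CPM and then 2.05 to 10.7 CPM (-1.49, SE 0.34, adjusted p = 0.00412, edgeR). Neither population overlapped, but both calls were lost without replicate 4 or 5. In SF, bag3 also fell, from 9.08 to 38.6 CPM to 7.11 to 13.8 CPM (-1.29, adjusted p = 0.00629, edgeR), as did hsf2 (-1.55) and dnajb14 (-1.12). The summed levels of skeletal muscle and leukocyte markers moved over the same comparison. In SF the list of 14 skeletal genes, carried by ckma, ckmb and tnnt3b, summed to 4158 to 4883 CPM at 3dps and 974 to 2252 CPM at 3dpci. The leukocyte list summed to 56.9 to 119 and 193 to 797 CPM. In PC the skeletal sum was 2931 to 4832 and 1082 to 3074 CPM and the leukocyte sum 52.8 to 154 and 182 to 642 CPM. Of 13 tested skeletal muscle markers, 6 fell in SF (median -3.18) and 0 in PC (median -0.895). Of 10 tested leukocyte markers, 1 rose in SF (median 0.217) and 0 in PC (median 0.971). Also in SF, 2 of 7 fibroblast and 2 of 6 endothelium markers fell. Of the 3 heart muscle markers, 2 were tested and none was called, with medians of -0.69 in SF and -0.47 in PC. Of these 2, tnni1b had a mean of only 0.587 CPM over the libraries. The paper describes a fall of myl7 in the first days after injury. The part of all these markers in the lower levels of the muscle chaperones was not tested.

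At 3dpci the calls in the higher direction were few: 2 of 10 ER members, 1 of 9 mitochondrial members and 1 of the remaining J-domain proteins in SF, and 1 member of the cytosolic HSP70 family in PC. hsp90b1 measured 5.39, 2.76, 4.5, 1.82 and 5.11 CPM in SF at 3dps and 10.1, 13, 13.7, 9.27 and 9 CPM at 3dpci, without overlap (2.03, SE 0.50, adjusted p = 0.0031, edgeR). dnajb11 went from 26.5 to 49.6 CPM to 71.6 to 99 CPM in SF (1.28, SE 0.23, adjusted p = 3.91e-05, edgeR) and from 10.6 to 29 CPM to 28.4 to 50.7 CPM in PC, where it passed the adjusted p alone (0.89, adjusted p = 0.015). hspe1 rose in SF from 276 to 386 CPM to 404 to 651 CPM (1.25, SE 0.21, adjusted p = 1.42e-05, edgeR), a call lost without the RUVg factor. dnajc5gb, which overlaps SLC30A2 on the same strand, rose too (1.08, adjusted p = 0.0317, edgeR). In PC, hspa4b rose from 12.6 to 37.8 CPM to 35.1 to 60.6 CPM (1.00, SE 0.23, adjusted p = 0.00382, edgeR), at the very edge of the fold threshold. Of the 23 further ER genes, 3 rose in SF (creld2, hyou1 and sdf2l1), and in PC 2 rose (manf and pdia4) and ddit3 fell. fkbp5 fell in SF by 4.01 and in PC by 1.15 on the log2 scale.

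From 7 days on, the injured hearts were compared with the unoperated controls, the same 3 ventricles as for the sham groups. In SF the calls numbered 5, 3 and 5 at the 7-day, 14-day and 30-day points (4.85%, 2.91% and 4.85%, all genes 3.04%, 2.47% and 3.38%). In PC 5 were called at 7dpci (4.85%, all genes 2.41%) and none at 14dpci and 30dpci, where 0.426% and 0.474% of all genes were called by edgeR. For those times, 12 and 10 members had an unadjusted p under 0.05, and DESeq2 called 0 and 1. At 7dpci, fitted on only the groups compared, 1 was called in SF and 0 in PC, and without PC 3dps replicate 5 the PC count was 8. Cell markers moved over the 7-day comparison. Of 7 fibroblast markers, 3 collagen genes rose in each population, and the sum went from 165 to 376 CPM in controls to 2467 to 4082 CPM at 7dpci in SF and from 270 to 334 CPM to 2255 to 4498 CPM in PC. Of 13 skeletal muscle markers, ckma and ckmb fell in both. The list's median was 2.91 in SF, against the direction of these genes, and -2.52 in PC. The sums were 6013 to 8542 CPM in controls and 2669 to 8778 CPM at 7dpci in SF, and 5559 to 5924 and 1102 to 2175 CPM in PC. Of 7 red blood cell markers, 2 rose in SF (median 3.15), where the sum was 7033 to 11034 CPM in controls and 23056 to 74886 CPM at 7dpci, and none was called in PC (median 1.39). Of 6 endothelium markers, tie1 fell in PC. Their part in the members' differences was not tested.

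hspa8 was higher in SF at 7dpci, at 301, 443, 454, 370 and 416 CPM against 166, 132 and 184 CPM (1.66, SE 0.32, adjusted p = 0.000442, edgeR), and in PC (1.25, adjusted p = 0.00774, edgeR), with no overlap in either. The PC value turned to -0.52 when only the groups compared were fitted. hspa4b was higher at 7dpci in SF, at 46.4 to 55 CPM against 15.7 to 17.3 CPM (1.46, adjusted p = 0.00973, edgeR), and in PC (1.25, adjusted p = 0.035, edgeR). In PC hspa5 at 309 to 353 CPM (1.39, adjusted p = 0.0174, edgeR) and dnajc10 at 10.1 to 12.2 CPM (2.22, adjusted p = 0.00389, edgeR) were higher as well, and dnajc19 was lower (-1.13, adjusted p = 0.00645, edgeR), but its value turned to 0.82 when only the groups compared were fitted.

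hspe1 was called in SF at each of these times (1.73, 1.38 and 1.11), but its CPM ratios were 1.66, 1.54 and 1.89 and no call was left without the RUVg factor. At 30dpci hspa12b measured 25.6, 12.9, 15.9, 11.3 and 11.7 CPM in SF against 2.62, 0.982 and 3.15 CPM in controls (2.72, SE 0.58, adjusted p = 0.000995, edgeR), a call that held under all 13 alternatives. hspb3 measured 32.4, 15.1, 70.2, 28.6 and 72.9 CPM against 5.89, 3.93 and 29.9 CPM, with overlap (1.89, adjusted p = 0.00764, edgeR; lost without replicate 1 or 2). dnajb1b rested on replicate 5 at 35.8 CPM beside 6.93 to 13 CPM in the others (1.74, adjusted p = 0.0355, edgeR; lost without replicate 1, 2, 3 or 5). hspa8b fell in SF at 7dpci, from 44.5, 36.3 and 11 CPM to 3.01 to 6.75 CPM (-2.11, adjusted p = 0.0297, edgeR; lost without replicate 1, 4 or 5).

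Between the populations, 34 members were called in at least 1 of the 10 conditions (33%, where 25.1% of all genes were). The number per condition ran from 4 to 10, near the background in most: 5.83% against 5.77% of all genes in controls, 8.74% against 6.33% at 6hps, 8.74% against 7.40% at 24hps, 5.83% against 6.70% at 3dps, 8.74% against 6.89% at 6hpci, 7.77% against 7.91% at 24hpci, 9.71% against 6.45% at 3dpci, 3.88% against 5.38% at 7dpci, 7.77% against 7.89% at 14dpci and 8.74% against 6.69% at 30dpci. The median over all genes was shifted towards SF by 0.13 at the last 3 times in the fit with the RUVg factor and by 0 without it, and the fold changes at these times are to be read against that shift. In every condition but 6hps the RUVg factor did not overlap between SF and PC, so it cannot be fully told apart from the population there. The assembly is of a surface fish, and how far this lowers the counts of a gene in cavefish was not tested. Cell markers also differed between the populations. Of 13 tested skeletal muscle markers, 9 were called higher in SF at 7dpci, 7 at 14dpci and 8 at 30dpci. The medians were 8.21, 3.92 and 5.09, and 0, 0 and 1 were called lower. At 24hpci 0 were called higher and 1 lower (median 1.25). The part of these markers in the members' differences, among them HSPB9 and hspb6, was not tested.

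A few members differed in most conditions. hspa8b, an HSC70-like gene (ENSAMXG00000004386, chromosome 2, 19517391 to 19536934, plus strand, overlapping lim2.3 on the other strand), was lower in SF in 7 of 10 conditions, with log2 fold changes from -2.85 to -0.85. At 6hps it measured 30.5, 21.1, 15, 8.05 and 5.12 CPM in SF and 49.4, 31.6, 53.1, 84.2 and 69.4 CPM in PC, without overlap (-2.24, SE 0.45, adjusted p = 0.000222, edgeR), and this call held under all 13 alternatives. dnaja1, an HSP40 that helps mitochondrial import and HSP70 folding, was higher in SF in 7 of 10 conditions (0.94 to 1.67), and its value at 3dps turned to -0.013 when only the groups compared were fitted. At 24hps it measured 22.6, 31.6, 25.7, 28.9 and 28.7 CPM in SF and 9, 9.24, 8.4, 2.97 and 2.31 CPM in PC (1.67, SE 0.38, adjusted p = 0.00102, edgeR). hspb6 was higher in SF in 7 of 10 conditions (0.18 to 4.37). At 3dps it measured 6.16, 35.8, 38.3, 24.8 and 23.9 CPM in SF and 2.81, 2.53, 0.63, 3.34 and 4.4 CPM in PC (4.37, SE 0.62, adjusted p = 6.01e-08, edgeR). Of the 7 hspb6 calls, 3 held under all 13 alternatives (6hps, 3dps and 6hpci), and those at 24hps, 24hpci and 30dpci were lost without the RUVg factor. The 24hpci value turned to -0.74 when only the groups compared were fitted.

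HSPB9 (chromosome 1, 20733788 to 20744154, plus strand) was higher in SF at 24hpci, 7dpci, 14dpci and 30dpci. At 3dpci it missed the threshold (1.01, adjusted p = 0.0909, edgeR), and the 30dpci value turned to -0.43 when only the groups compared were fitted. At 14dpci it measured 200, 201, 97.9, 131 and 167 CPM in SF and 29.7, 63.5, 29.1, 47.9 and 26.2 CPM in PC, well apart (1.98, SE 0.40, adjusted p = 0.000137, edgeR), and this call held under all 13 alternatives. dnajc17 was lower in SF in 5 conditions and dnajc9, a histone-binding J-domain protein, in 4 (-3.14 to -0.82). At 24hps dnajc9 measured 3.13, 0, 1.93, 1.23 and 1.92 CPM in SF and 17, 19.1, 13, 7.14 and 17.7 CPM in PC (-3.14, SE 0.64, adjusted p = 0.000209, edgeR). hspa12a, a distant HSP70 relative, was higher in SF in 3 conditions; at 6hpci this rested on 28 reads in SF and 3 in PC, a ratio of 8.89 with an exact 95% interval of 2.75 to 45.7 for counting error, and the fitted value turned to -0.40 when only the groups compared were fitted. hspa4l was read 1 time in SF and 27 times in PC at 6hps (ratio 0.0389, 0.000951 to 0.236). In controls, hspa5 was higher in SF (1.15, adjusted p = 0.0469, edgeR), a call that was lost without replicate 2, 3 or 5. Leaving out replicate 3 took out the highest SF control (435 CPM) and the lowest PC control (79.1 CPM) together and gave 0.27. The value turned to -0.51 when only the groups compared were fitted. At 3dpci both hsp70.3 genes were lower in SF (-2.97 and -3.69), where replicates 3 and 4 of PC carried the difference, at 10.8 and 22.2 CPM for 1 gene and 21.5 and 29.5 CPM for the other, and both calls were lost without replicate 3.

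The test of whether the injury difference itself depended on the population called few members. There were 6 calls by edgeR over the 6 time points (0, 1, 0, 0, 3 and 2 at 6 h, 24 h, 3, 7, 14 and 30 days) and 8 by DESeq2. The all-gene share was 0.336% at 24 h, 0.117% at 3 days, 0.975% at 7 days, 0.927% at 14 days and 0.4% at 30 days, against 0.971%, 0%, 0%, 2.91% and 1.94% of the members, and 5 and 19 members had an unadjusted p under 0.05 at 3 and 7 days. hspa12b gave the call at 24 h. It measured 5.01, 6.17, 4.5, 4.91 and 10.9 CPM in SF at 24hps and 12.9, 9.17, 16.2, 13 and 17.5 CPM at 24hpci, and 24, 16, 24.4, 33.3 and 14.6 CPM and then 7.22, 8.19, 8.31, 7.3 and 12.6 CPM in PC. It thus went up in one population (1.17) and down in the other (-1.31), neither called alone, with a difference of 2.48 (SE 0.52, adjusted p = 0.00835, edgeR). The call was lost without replicate 1, 3 or 4. Of 6 endothelium markers, 3 were called lower in PC at 24hpci against 24hps (median -1.03) and none in SF (median -0.23). Their part in the hspa12b difference was not tested, nor was that of cct7, which overlaps it on the opposite strand.

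hsf2, a heat shock factor known from development and testis (ENSAMXG00000031974, chromosome 3, 35458426 to 35473506, minus strand, overlapping serinc1), went the other way. It measured 7.19, 8.84 and 13.4 CPM in SF controls and 7.42, 1.43, 3.62, 4.33 and 4.56 CPM at 30dpci, and 5.83, 3.33 and 8.26 CPM and then 22.6, 23.5, 14.6, 19.6 and 20.4 CPM in PC. The SF groups overlapped slightly and the PC groups did not. The difference between populations was -2.94 (SE 0.65, adjusted p = 0.0111, edgeR) at 30 days and -2.41 (SE 0.65, adjusted p = 0.0409, edgeR) at 14 days, and the latter was lost without each of the 5 replicate numbers in turn, the former without replicate 2 or 3. hspb3 rose with time in SF and not in PC, where it started at 40.8 to 50.8 CPM in controls and was at 20.4 to 37.4 CPM at 30dpci. Its difference between populations was 2.82 (SE 0.64, adjusted p = 0.012, edgeR) at 14 days and 2.46 (SE 0.62, adjusted p = 0.0367, edgeR) at 30 days, and both calls were lost without replicate 1 or 2. Of 13 tested skeletal muscle markers, 0 and 4 rose in SF at 14dpci and 30dpci against controls (medians 3.89 and 4.37). In PC 0 rose at either time (medians 2.90 and 0.69). The test of the difference between populations called 0 of these markers at both times. Their part in the hspb3 difference was not tested. For dnajb9a the difference was 2.81 at 14 days (SE 0.69, adjusted p = 0.0239, edgeR; lost without replicate 1, 3 or 5). Controls measured 3.27, 3.93 and 5.51 CPM in SF and 15, 13.3 and 9.91 CPM in PC, and the 14dpci libraries 3.92 to 10.7 CPM and 0 to 6.66 CPM. All 14-day and 30-day values rest on 3 controls per population.

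HSF1, the main switch of the heat shock response, was read 75 times in all 96 libraries. It was at 0 CPM in all 6 controls, and at 6hpci it measured 2.79, 0, 0.547, 1.1 and 0.664 CPM in PC and 0 to 1.88 CPM in SF, which was not called (3.51 in PC, SE 1.43, adjusted p = 0.20, edgeR). The members that did not pass the filter had 0 to 4 reads over all libraries, among them cryaba (0 reads) and cryabb (3 reads), the alpha B crystallins, hsph1 (4 reads) and hsf4 (0 reads). So few reads at this depth do not show that a transcript is absent. The symbol rule also took in 4 genes that are not chaperones. Of these, the hsf2bp pair had no read, hspbap1 was read 11 times in PC controls and 1 time at 6hps (ratio 0.0434, exact 95% interval 0.00101 to 0.299), and hspg2, the basement membrane protein perlecan, was higher in SF at 6hpci (1.11, adjusted p = 0.00561, edgeR).

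Over the 96 libraries, the members whose log2(CPM + 1) ran most like that of hspa5 were hspa4b (r = 0.883), dnajb11 (0.870) and hspd1 (0.851), which with group means removed fell to 0.490, 0.495 and 0.499. For hsp70.3 on the scaffold they were the second hsp70.3 gene (0.759), hspa1b (0.712) and DNAJA4 (0.685). These are descriptions across libraries that share groups and depth.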

How the data were processed

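QuantSeq 3′ RNA-seq libraries were made by the authors from single ventricles. Per the submitters' processing notes, reads were handled with bcl2fastq 2.20.0, Trim Galore 0.6.4 and STAR 2.7.6a and aligned to Mexican tetra 2.0, the surface fish assembly, and per the paper's methods with a customized Ensembl release 103 annotation. The authors deposited raw read counts per gene, which were used for all values and tests. The deposited rLog2 values, a log2 scale transformed by the authors, and their gene symbols were used for symbols only. The treatment of strand and of reads that match several genes is not given in the sources used here. All mapped columns were used; 0 were left unmapped.

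Counts were analysed in R 4.3.3 with edgeR 4.0.16: TMM normalization, a filter of 1 CPM in any 1 library, 1 RUVg factor, 1 coefficient for each of the 20 groups over all 96 libraries, quasi-likelihood F tests and Benjamini-Hochberg adjustment. The SE of a log2 fold change was its size divided by the square root of F. A call needed an adjusted p under 0.05 and a fold above 2. Depth was 672292 to 2586602 counts per library, so that genes with few reads carry a wide counting error; exact 95% intervals cover counting error only. Correlations used log2(CPM + 1).

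Named genes were a fixed set per role, up to 6 called members per role with the smallest adjusted p, and the most abundant member of each role. Members and lists were chosen with earlier results of these data known. Alternatives were 2 RUVg factors or none, DESeq2 1.42.0, its size factors in edgeR, no filter, no fold threshold, only the groups compared, a replicate block, each replicate number left out, and PC 3dps replicate 5 left out, the last chosen after seeing the data. Scripts were tested on simulated data. Nothing paired the replicate numbers of different groups.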

Additional observations from a re-analysis of the deposited data

Results flagged for a closer look

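Called genes among the named genes were checked in each compared group other than the controls. Of 230 such pairs of gene and group, 20 had 1 library far from the other libraries of its group. For normally distributed values, chance alone flags about 1 in 20 such groups. The check used CPM without a log scale, and whether that rate holds for them was not tested.

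In SF these were hsp70.3 (the scaffold gene) at 58.8 CPM in 6hpci replicate 1, hspa1b at 5.67 CPM in 6hps replicate 1, hspb6 at 1.30 CPM in 3dpci replicate 2, hspe1 at 386 CPM in 3dps replicate 1 and 603 CPM in 14dpci replicate 5, and dnajb1b at 35.8 CPM in 30dpci replicate 5. They were also dnajb4 at 9.58 CPM, hspa12b at 10.9 CPM (both 24hps replicate 5) and dnajc15 at 123 CPM (24hps replicate 2). At later times they were hspa8b at 9.65 CPM in 3dpci replicate 3, dnajb11 at 60.1 CPM in 14dpci replicate 5, dnajc9 at 12.9 CPM in 14dpci replicate 2 and hspa12a at 12.8 CPM in 30dpci replicate 1.

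In PC they were hsp70.3 (the chromosome 2 gene) at 5.26 CPM and DNAJA4 at 87.2 CPM, both in 6hps replicate 4, hspa4a at 174 CPM in 6hps replicate 5, hspbap1 at 0.696 CPM in 6hps replicate 1, dnajc10 at 4.50 CPM in 24hps replicate 1, hspa12a at 2.18 CPM in 6hpci replicate 2 and hspa5 at 176 CPM in 30dpci replicate 3.

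For 6 results the injury difference itself differed between populations by edgeR's test. The difference, SF minus PC on the log2 scale, was 2.48 for hspa12b at 24 h. At 14 days it was 2.81 for dnajb9a, -2.41 for hsf2 and 2.82 for hspb3. At 30 days it was -2.94 for hsf2 and 2.46 for hspb3.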

How the results depend on the processing

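Of the 196 calls, 16 were kept under all 13 alternatives and 43 under all 5 fits that left out a replicate number, and 151 were kept under DESeq2, its size factors, no RUVg factor and no filter. By setting, 192 were kept with DESeq2, 189 with its size factors, 190 without the filter, 158 without the RUVg factor, 181 with the replicate block, 184 without PC 3dps replicate 5, 76 fitted on only the groups compared and 56 with 2 RUVg factors. The members' median in the sham groups stayed above 0 under each of these, and with 2 RUVg factors was 0.17 and 0.32 in SF and 0.35 and 0.31 in PC at 6hps and 24hps. The cause was not tested. The all-gene medians under these settings are not given beside these values, so the members' medians are not set against a background.

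These counts of called members moved by more than 1.5 times. The share of all genes called under each setting is not given beside them, so they are not read as an effect on the members. With 2 RUVg factors, the count was 1 for SF 6hpci against 6hps, 1 for SF 3dpci against 3dps, 2 for SF 7dpci against con, 1 for PC 6hpci against 6hps, 0 for PC 3dpci against 3dps, 0 for PC 7dpci against con, 1 for PC 14dpci against con, 7 for the SF sham groups, 11 for the PC sham groups, 5 for SF against PC 24hpci, 5 for SF against PC 3dpci, 3 for SF against PC 30dpci. With DESeq2, the count was 4 for SF 6hpci against 6hps, 3 for PC 24hpci against 24hps, 8 for PC 7dpci against con, 1 for PC 30dpci against con. Without the RUVg factor, the count was 6 for SF 24hpci against 24hps, 14 for SF 7dpci against con, 10 for SF 14dpci against con, 10 for SF 30dpci against con, 1 for PC 24hpci against 24hps, 12 for PC 7dpci against con, 2 for PC 14dpci against con, 2 for PC 30dpci against con, 5 for SF against PC 6hpci, 9 for SF against PC 7dpci. Without the filter, the count was 1 for PC 24hpci against 24hps. Fitted on only the groups compared, the count was 1 for SF 6hpci against 6hps, 3 for SF 3dpci against 3dps, 1 for SF 7dpci against con, 0 for SF 14dpci against con, 3 for SF 30dpci against con, 3 for PC 24hpci against 24hps, 1 for PC 3dpci against 3dps, 0 for PC 7dpci against con, 1 for PC 14dpci against con, 1 for SF against PC con, 2 for SF against PC 24hps, 3 for SF against PC 3dps, 1 for SF against PC 6hpci, 0 for SF against PC 24hpci, 1 for SF against PC 3dpci, 0 for SF against PC 7dpci, 5 for SF against PC 14dpci, 0 for SF against PC 30dpci. With the replicate block, the count was 1 for SF 6hpci against 6hps, 1 for PC 24hpci against 24hps. Without PC 3dps replicate 5, the count was 1 for PC 24hpci against 24hps, 7 for PC 3dpci against 3dps, 8 for PC 7dpci against con. Without the fold threshold, the count was 1 for SF 24hpci against 24hps, 6 for SF 14dpci against con, 9 for SF 30dpci against con, 8 for PC 3dpci against 3dps, 15 for SF against PC 6hps, 15 for SF against PC 24hps, 10 for SF against PC 3dps, 7 for SF against PC 7dpci. Leaving out each replicate number in turn gave 0 to 2 for SF 6hpci against 6hps, 0 to 1 for SF 24hpci against 24hps, 6 to 10 for SF 3dpci against 3dps, 2 to 8 for SF 7dpci against con, 1 to 5 for SF 14dpci against con, 2 to 5 for SF 30dpci against con, 2 to 5 for PC 6hpci against 6hps, 0 to 1 for PC 24hpci against 24hps, 1 to 4 for PC 3dpci against 3dps, 2 to 10 for PC 7dpci against con, 0 to 1 for PC 14dpci against con, 0 to 0 for PC 30dpci against con, 22 to 40 for the SF sham groups, 17 to 41 for the PC sham groups, 2 to 7 for SF against PC con, 4 to 12 for SF against PC 6hps, 4 to 8 for SF against PC 24hps, 4 to 7 for SF against PC 3dps, 5 to 8 for SF against PC 6hpci, 4 to 7 for SF against PC 24hpci, 3 to 10 for SF against PC 3dpci, 2 to 6 for SF against PC 7dpci, 4 to 8 for SF against PC 14dpci, 3 to 9 for SF against PC 30dpci, 1 to 5 for the population difference tests. Same-numbered samples did not deviate together (correlations from -0.229 to 0.370), so the block marks a shared number only.

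The sign turned for 14 calls. Fitted on only the groups compared, these were dnajc19 (0.82) and hspa8 (-0.52) in PC at 7dpci, and between populations hspa5 in controls (-0.51), dnaja1 at 3dps (-0.013), hspa12a at 6hpci (-0.40), hspb6 at 24hpci (-0.74), and dnajb11 (-0.59), hspa5 (-0.60) and HSPB9 (-0.43) at 30dpci. With 2 RUVg factors they were dnajb11 in SF at 6hps (-0.071), dnajb9a (-0.018), dnajc21 (-0.052) and hsp90aa1.2 (-0.034) in SF at 24hps, ahsa1b in PC at 6hps (-0.034) and hspa5 between populations at 30dpci (-0.33). Depth limits the genes with few reads, among them bag4, HSF1, hspa4l and hspa12a.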
